A study of Mus musculus with 15 samples.

Results

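The collagen and laminin chain genes were taken from a table of kidney messenger RNA as the rows whose symbol is Col, a number, a and a number, or Lama, Lamb or Lamc and a number. The rule matched 55 of the 23284 rows. Among them Col4a3bp codes for the ceramide transfer protein and is no collagen chain, which left 54 chains, 43 of collagen and 11 of laminin. The study treated wild-type (WT) mice with D-alanine (D-ala), its mirror-image amino acid L-alanine (L-ala) or Vehicle and took kidney RNA at 2 h, giving 5 libraries of each treatment. All 3 groups shared genotype, tissue and time. The sources used here give no doses, routes, Vehicle make-up, ages or sexes, so a D-ala value is set against an L-ala value at a matched time and not at a known matched dose. The labels do not say that the libraries came from separate animals. The p-values set differences of group means against the spread between these libraries, and that spread may therefore be partly technical.

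Basement membranes are thin sheets of matrix under epithelia and around capillaries, and their scaffolds are a collagen IV network and a laminin network. Each collagen IV molecule is a triple helix of 3 α chains, and each laminin is a trimer of 1 α, 1 β and 1 γ chain. In the mature kidney filter, the glomerular basement membrane, podocytes make the collagen IV chains α3, α4 and α5, and the laminin there joins the chains coded by Lama5, Lamb2 and Lamc1. Col4a1 and Col4a2 code for the collagen IV chains found in nearly all basement membranes. Inherited loss of the α3, α4 or α5 chain causes Alport syndrome. Fibrillar collagens such as those of Col1a1, Col1a2 and Col3a1 lie instead between the tubules and around vessels and come mainly from fibroblasts.

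The collagen IV genes lie in head-to-head pairs. Calls were made for the Col4a3 and Col4a4 pair and for Lama5. The Col4a1 and Col4a2 pair passed in no comparison and stands beside them. The 3 start regions are shown. Each is 300 bases of RefSeq sequence on GRCm38.p6, the build also called mm10, printed 5′ to 3′ on the strand of the named gene, with capitals marking the GC box GGGCGG on either strand. The first window, on chromosome 1 at chr1:82586800-82587099 on the minus strand, holds the annotated starts of both Col4a4 and Col4a3 (GENCODE M21), at printed bases 251 and 179, with 71 bases between them. The second, chr8:11312777-11313076 on the minus strand, holds the starts of Col4a1 at base 251 and of Col4a2 at base 272, so that these genes overlap by 22 bases. The third, chr2:180225810-180226109 on the minus strand, is the start region of Lama5.
Col4a4 and Col4a3 start region: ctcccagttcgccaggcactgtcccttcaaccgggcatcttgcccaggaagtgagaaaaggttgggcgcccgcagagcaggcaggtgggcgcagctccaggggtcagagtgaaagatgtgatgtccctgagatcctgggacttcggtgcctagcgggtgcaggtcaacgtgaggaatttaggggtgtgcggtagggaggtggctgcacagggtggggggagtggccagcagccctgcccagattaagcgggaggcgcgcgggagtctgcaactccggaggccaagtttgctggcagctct
Col4a1 and Col4a2 start region: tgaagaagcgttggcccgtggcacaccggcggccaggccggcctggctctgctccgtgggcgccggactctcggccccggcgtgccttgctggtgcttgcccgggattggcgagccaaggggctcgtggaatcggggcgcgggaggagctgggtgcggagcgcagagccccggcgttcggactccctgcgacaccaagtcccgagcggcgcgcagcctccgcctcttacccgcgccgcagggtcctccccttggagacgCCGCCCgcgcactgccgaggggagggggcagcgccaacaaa
Lama5 start region: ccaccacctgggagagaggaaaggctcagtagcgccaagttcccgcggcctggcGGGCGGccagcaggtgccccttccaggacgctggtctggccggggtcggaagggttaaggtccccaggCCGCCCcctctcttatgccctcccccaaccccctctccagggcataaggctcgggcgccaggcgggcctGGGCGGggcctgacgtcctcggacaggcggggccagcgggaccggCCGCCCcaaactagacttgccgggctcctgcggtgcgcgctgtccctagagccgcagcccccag
The shared region of Col4a4 and Col4a3 held 0 GC boxes, that of Col4a1 and Col4a2 held 1 and that of Lama5 held 4. Of 32851 mouse promoter windows of this length, 35.7% held a GC box, as did 26 of the 44 windows (59.1%) that the table gave for 40 of the chains. None of the 3 windows held TATAAA, TGACGTCA or TGANTCA, searched on both strands, and CCAAT was found in the Col4a1 window alone.

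Levels in FPKM, fragments scaled to transcript length and library depth, can be set beside each other between genes. Of the 54 chains, 26 had at least 1 FPKM in 5 or more libraries and were tested, 17 collagens and 9 laminins. The 7 chains with a mean over all libraries of 10 FPKM or more were, from the highest, Col18a1, Col4a3, Lamb1, Col4a1, Col4a4, Col4a2 and Col27a1. All but Col27a1 code for basement membrane chains. The other 28 chains were not tested, and this filter can hide a change in them. They reached at most 1.13 FPKM (Col6a3), 9 of them stayed under 0.1 FPKM, and Col22a1 was listed at 0 in every library.

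D-ala kidneys had more RNA of the basement membrane chains Lama5 and Col4a3 than either L-ala or Vehicle kidneys. Against Vehicle, Col27a1, Lama5, Lama1 and Col4a3 rose in D-ala kidneys and no tested chain fell. Against L-ala, the same 4 chains together with Col4a4 and Lamb2 were higher in D-ala kidneys. In L-ala kidneys Lama5 and Lamb2 fell against Vehicle, and no chain rose. The call of Lama1 against Vehicle lay at the threshold. Both falls in L-ala kidneys lost their calls once the trend of expression with gene length was removed from each library. So did Col27a1, Col4a4 and Lamb2 in D-ala against L-ala. A change was called at an adjusted p under 0.05 in limma over all tested genes.

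Read against all 11781 tested genes, D-ala against Vehicle called 4 of 26 chains higher (15.4%), where 6.53% of all genes were called higher, and 0 lower, where 4.92% were. L-ala against Vehicle called 2 chains lower (7.69%), where 4.53% of all genes were called lower, and 0 higher, where 6.48% were. D-ala against L-ala called 6 chains higher (23.1%), where 7.01% of all genes were called higher, and 0 lower, where 6.66% were. At an unadjusted p under 0.05, counting both directions, 7, 4 and 10 chains passed in these comparisons. The share of all genes at that threshold is not given, so these counts cannot be read as high or low. The median log2 fold change of the 26 chains was 0.02 for D-ala against Vehicle, -0.13 for L-ala against Vehicle and 0.09 between D-ala and L-ala, beside 0.00, 0.01 and -0.01 over all tested genes. The comparisons share libraries, so the values are given side by side and are not independent.

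**Figure D1:**
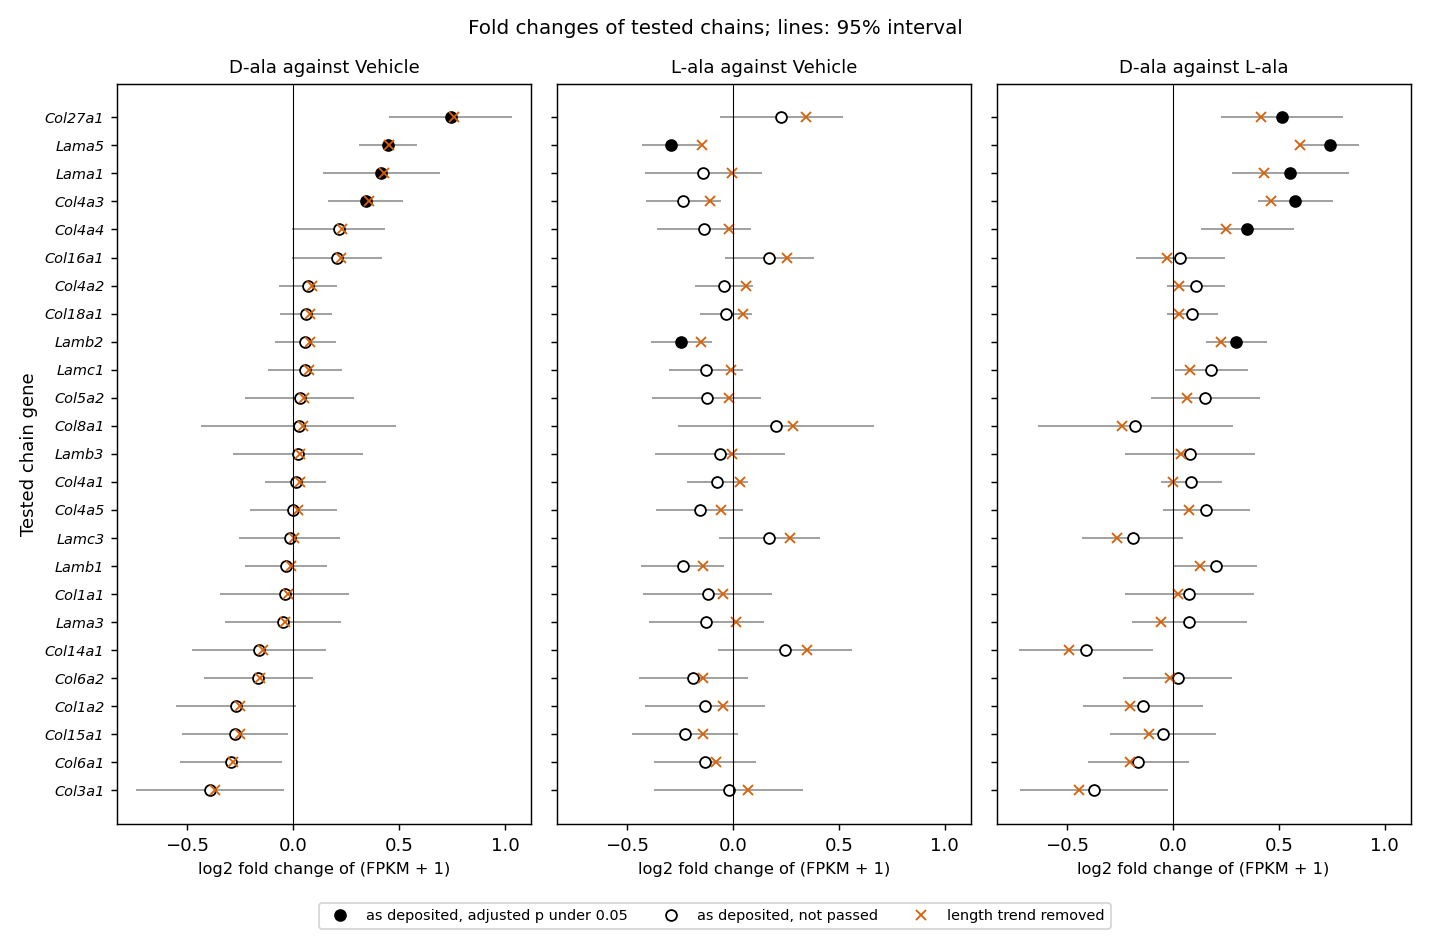
Log2 fold changes of FPKM + 1 for 25 of the 26 tested chains in the 3 comparisons, with filled circles for chains at an adjusted p under 0.05, open circles for the others, grey lines for the 95% interval and crosses for the value after removal of the length trend. Filled circles number 4 for D-ala against Vehicle, 2 for L-ala against Vehicle and 6 between D-ala and L-ala, and the crosses of L-ala against Vehicle lie to the right of their circles.

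The libraries held between 7.57 M reads (Vehicle replicate 1) and 10.9 M reads (L-ala replicate 1) by the depth recovered from the table. The 7 tubule markers summed to between 75319 and 141610 FPKM in the 15 libraries, so the libraries carried the kidney RNA their labels name. Most of that sum was Kap, a proximal tubule transcript that averaged 97106 FPKM, and single markers moved: Slc12a3, of the distal convoluted tubule, gave 0.49 (adjusted p = 0.00581) and Aqp2, of the collecting duct, -0.43 (adjusted p = 0.00691) for D-ala against Vehicle. The marker Slc34a1 rose against Vehicle in D-ala (0.20, adjusted p = 0.0447) and in L-ala (0.22, adjusted p = 0.0336). In L-ala against Vehicle, Kap rose (0.39, adjusted p = 0.0237) and Umod fell (-0.43, adjusted p = 0.0395). Against L-ala, D-ala gave -0.38 for Kap (adjusted p = 0.0195), 0.48 for Slc12a3 (adjusted p = 0.00835) and -0.37 for Aqp2 (adjusted p = 0.0179). Lrp2 and Slc12a1 passed in no comparison. Of 6 tested smooth muscle markers, 2 were higher in D-ala than in Vehicle kidneys, where 6.53% of all genes were called higher. These were Ren1 (0.77, adjusted p = 0.0257) and Smtn (0.23, adjusted p = 0.0387). Acta2 (0.19) and Myh11 (0.27) did not pass, nor did Tagln (-0.20) and Des (-0.07), which went the other way. Both tested neutrophil markers, S100a8 and S100a9, were higher in L-ala than in Vehicle kidneys (2.03 and 1.80, adjusted p = 0.0231 and 0.0204). Of all genes, 6.48% were called higher there. The part of these markers in the chains' values was not tested. L-ala replicate 5 stood apart from the other 4 L-ala libraries in how expression followed gene length. Without it, L-ala against Vehicle called 5 chains lower (8.93% of all genes), and D-ala against L-ala called 9 higher (10.7% of all genes) and 1 lower (12.8% of all genes). The added chains were Col4a3, Col4a5 and Lamb1 for L-ala against Vehicle, and Col4a5, Lamb1 and Lamc1, and Col14a1 as the lower one, between D-ala and L-ala.

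Among the collagen IV chains, Col4a3 was higher in D-ala kidneys than in either other group, Col4a4 differed only between D-ala and L-ala, and Col4a1, Col4a2 and Col4a5 passed in no comparison with all libraries. Col4a3 (chr1:82586921-82722059, plus strand) read 29.3, 26.5, 30.3, 34.7 and 28.4 FPKM in the D-ala libraries, 17.8, 19.7, 18.6, 18.1 and 24.3 FPKM in the L-ala libraries, and 24.8, 24.4, 23.1, 23.2 and 20.8 FPKM in the Vehicle libraries. Every D-ala library lay above every L-ala and Vehicle library, while 4 of the L-ala libraries lay below all Vehicle libraries and L-ala replicate 5 lay among them. Col4a3 was higher in D-ala than in L-ala kidneys by a log2 fold change of 0.58 (SE 0.08, limma adjusted p = 7.99e-04) and than in Vehicle kidneys by 0.34 (SE 0.08, adjusted p = 0.0142). L-ala against Vehicle gave -0.23 (SE 0.08, adjusted p = 0.0761) for Col4a3, which became -0.31 (adjusted p = 0.00847) without L-ala replicate 5 and -0.11 (adjusted p = 0.305) after the trend of expression with gene length was removed from each library. With that trend removed, D-ala against L-ala kept its call at 0.47 (adjusted p = 4.03e-04).

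Col4a4 (chr1:82448423-82586849, minus strand), the partner that Col4a3 is transcribed away from, read 22.3, 19.3, 19.7, 24.02 and 19.4 FPKM in the D-ala libraries, 14.1, 15.5, 14.7, 17.5 and 19.3 FPKM in the L-ala libraries, and 19.3, 21.9, 16.8, 17.9 and 14.2 FPKM in the Vehicle libraries. The D-ala and L-ala libraries did not overlap, but the highest L-ala library came within rounding of the lowest D-ala library, and the Vehicle libraries overlapped both. Col4a4 was higher in D-ala than in L-ala kidneys by 0.35 (SE 0.10, adjusted p = 0.0361). That call was lost without any of 7 single libraries, L-ala replicates 1 to 4 and D-ala replicates 1, 3 and 4, with adjusted p between 0.0550 and 0.0882. It was also lost with the length trend removed (0.25, adjusted p = 0.0798) and with no filter on low values (adjusted p = 0.0583). The log2 fold changes of Col4a4 against Vehicle were 0.21 for D-ala (adjusted p = 0.204) and -0.14 for L-ala (adjusted p = 0.385).

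Col4a5, the X-linked gene of the remaining chain of the same triple helix, averaged 5.26 ± 0.37 FPKM in D-ala, 4.65 ± 0.85 in L-ala and 5.29 ± 0.73 in Vehicle libraries (SD, n = 5 each, as for every mean here). It gave 0.00 for D-ala against Vehicle (95% interval -0.21 to 0.21) and 0.16 between D-ala and L-ala (-0.05 to 0.36), and neither passed. Its neighbour Col4a6, whose start is 1308 bases from that of Col4a5, stayed between 0.24 and 0.63 FPKM and was not tested. Col4a1 averaged 21.8 ± 1.07 FPKM in D-ala, 20.6 ± 1.85 in L-ala and 21.7 ± 1.80 in Vehicle libraries. Col4a2 averaged 16.1 ± 0.35 FPKM in D-ala, 14.9 ± 1.12 in L-ala and 15.4 ± 1.49 in Vehicle libraries. The libraries of the 3 groups overlapped for both genes, and D-ala against L-ala gave 0.09 for Col4a1 (95% interval -0.06 to 0.23) and 0.11 for Col4a2 (-0.03 to 0.25), so a difference the size of that of Col4a3 lay outside both intervals.

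Col4a3bp, which resembles these genes in name only, averaged 14.9 ± 1.67 FPKM in D-ala, 15.3 ± 1.25 in L-ala and 14.8 ± 1.48 in Vehicle libraries and passed in no comparison (log2 fold changes 0.01, 0.04 and -0.03 for D-ala against Vehicle, for L-ala against Vehicle and between D-ala and L-ala). As a share of the summed FPKM of the 6 collagen IV genes, Col4a3, Col4a4 and Col4a5 made up 59.3 ± 2.4% in D-ala, 53.1 ± 2.3% in L-ala and 55.3 ± 3.6% in Vehicle libraries. The D-ala libraries spanned 57.3 to 63.0%, above all 5 L-ala libraries (50.04 to 55.8%), and overlapped the Vehicle libraries (50.4 to 58.9%). This share and those below were chosen after the values were seen and are descriptions.

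**Figure D2:**
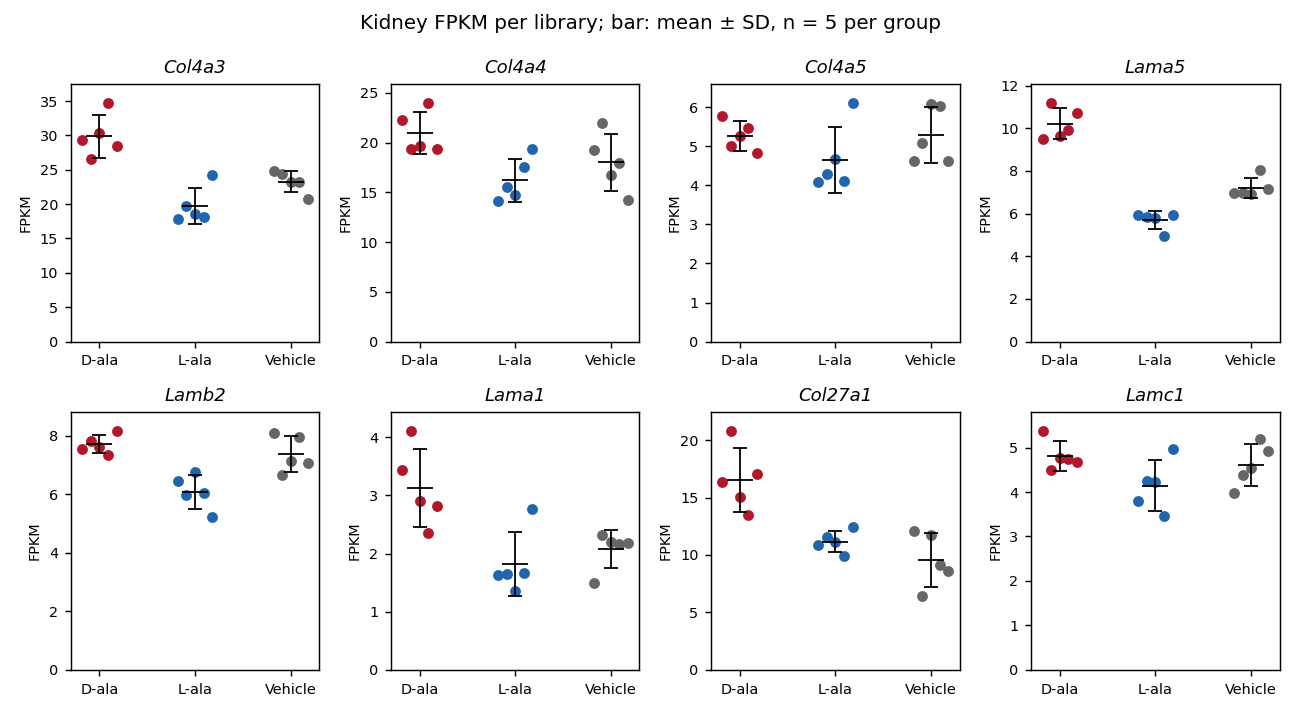
FPKM of 8 chain genes in each library, 5 per treatment, with the mean and SD as bars and each vertical axis starting at 0. For Col4a3, Lama5 and Col27a1 all 5 D-ala points lie above every L-ala and Vehicle point, whereas for Col4a5 and Lamc1 the groups overlap.

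Podocyte markers were set beside these chains. The 7 markers reported summed to between 71.6 and 85.8 FPKM in D-ala, 62.1 and 81.9 FPKM in L-ala and 56.4 and 77.3 FPKM in Vehicle libraries, with overlap between all groups. None of the 7 passed in either comparison with Vehicle, and 1 was higher in D-ala than in L-ala kidneys. Of all genes, 7.01% were called higher between D-ala and L-ala. Nphs1, which codes for the slit diaphragm protein nephrin, gave 0.29 for D-ala against Vehicle (adjusted p = 0.153). The marker that passed was Podxl, the podocyte sialomucin, with a log2 fold change of 0.28 between D-ala and L-ala (adjusted p = 0.0413). Between the same groups Nphs1 (0.32), Synpo (0.17), Wt1 (0.11) and Clic5 (0.04) did not pass. Ptpro (-0.08) and Cdkn1c (-0.11) went the other way and did not pass either. None of the 7 was at 0 in every library, and their part in the chains' differences was not tested. In bulk tissue, fewer cells of a type and less RNA per cell cannot be told apart.

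Lama5, the α chain of the laminin of the mature glomerular and most tubular basement membranes, gave the smallest p of all chains for D-ala, both against Vehicle and against L-ala. Lama5 (chr2:180176373-180225859, minus strand) read 9.52, 11.2, 9.65, 9.94 and 10.7 FPKM in the D-ala libraries, 5.96, 5.85, 5.78, 4.93 and 5.95 FPKM in the L-ala libraries, and 6.96, 6.98, 6.90, 8.03 and 7.16 FPKM in the Vehicle libraries. No library of 1 group lay within the range of another, with D-ala highest and L-ala lowest. Its log2 fold change was 0.45 for D-ala against Vehicle (SE 0.07, adjusted p = 3.97e-04) and 0.74 between D-ala and L-ala (SE 0.07, adjusted p = 6.98e-06). For L-ala against Vehicle it was -0.29 (SE 0.07, adjusted p = 0.0146). With the length trend removed, D-ala against Vehicle gave 0.45 (adjusted p = 4.49e-04) and D-ala against L-ala gave 0.60 (adjusted p = 7.71e-05), but L-ala against Vehicle gave -0.15 (adjusted p = 0.193) and was no longer called.

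Lamb2, the β chain that joins Lama5 in the kidney filter, differed through its L-ala libraries. Lamb2 (chr9:108479736-108490530, plus strand) read 7.55, 7.83, 7.62, 7.36 and 8.17 FPKM in the D-ala libraries, 6.45, 5.97, 6.76, 6.03 and 5.22 FPKM in the L-ala libraries, and 8.10, 6.66, 7.14, 7.95 and 7.06 FPKM in the Vehicle libraries. All L-ala libraries lay below all D-ala libraries, and 1 of them lay above the lowest Vehicle library. Lamb2 was higher in D-ala than in L-ala kidneys by 0.30 (SE 0.07, adjusted p = 0.0119) and lower in L-ala than in Vehicle kidneys, at -0.24 (SE 0.07, adjusted p = 0.0350). With the length trend removed these became 0.23 (adjusted p = 0.0767) and -0.15 (adjusted p = 0.268), and neither was called. The fall against Vehicle also missed the threshold without any of 5 single libraries, Vehicle replicates 1 and 4 and L-ala replicates 1, 2 and 4 (adjusted p 0.0502 to 0.09996), and D-ala against Vehicle gave 0.06 (adjusted p = 0.645).

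Lama1, the α chain of the laminin of early embryos, which in the adult kidney stays in proximal tubule basement membranes and the mesangial matrix, was low. Lama1 (chr17:67697259-67822647, plus strand) read 3.44, 4.11, 2.90, 2.35 and 2.81 FPKM in the D-ala libraries, 1.63, 1.64, 1.36, 1.67 and 2.77 FPKM in the L-ala libraries, and 1.502, 2.33, 2.21, 2.16 and 2.18 FPKM in the Vehicle libraries. L-ala replicate 5 was the only L-ala library within the D-ala range, and the lowest D-ala library lay just above the highest Vehicle library. Lama1 was higher in D-ala than in L-ala kidneys by 0.55 (SE 0.13, adjusted p = 0.0143) and, with the length trend removed, by 0.43 (adjusted p = 0.0306). Its rise against Vehicle, 0.41 (SE 0.13, adjusted p = 0.0494), lay at the threshold and was lost without any of 12 single libraries, all 5 Vehicle replicates, L-ala replicates 1, 2 and 4 and D-ala replicates 1, 2, 3 and 5 (adjusted p 0.0560 to 0.120), and with the trend with GC content removed (0.38, adjusted p = 0.0764).

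The other laminin chains passed in no comparison with all libraries. Lamb1, the β chain of tubular laminins and the most abundant laminin RNA, averaged 24.2 ± 3.17 FPKM in D-ala, 21.0 ± 3.20 in L-ala and 24.7 ± 1.198 in Vehicle libraries. Lamc1, the γ chain of most laminins, averaged 4.81 ± 0.33 FPKM in D-ala, 4.14 ± 0.57 in L-ala and 4.60 ± 0.48 in Vehicle libraries. For D-ala against L-ala they gave 0.20 (adjusted p = 0.147) and 0.18 (adjusted p = 0.144), which became 0.28 (adjusted p = 0.0183) and 0.24 (adjusted p = 0.0377) without L-ala replicate 5, and 0.13 (adjusted p = 0.302) and 0.08 (adjusted p = 0.485) with the length trend removed. Lama3 and Lamb3, chains of the epithelial laminin of anchoring structures in skin, averaged 2.79 ± 0.68 and 1.98 ± 0.48 FPKM in D-ala libraries. In L-ala libraries they averaged 2.58 ± 0.56 and 1.82 ± 0.49 FPKM, and in Vehicle libraries 2.89 ± 0.43 and 1.93 ± 0.49 FPKM. Their groups overlapped. Lama2 and Lama4, the α chains of muscle and vessel laminins, stayed at or under 1.10 FPKM and were not tested.

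Lama5 made up 59.9 ± 1.3% of the summed FPKM of the 5 laminin α genes in D-ala, 51.5 ± 4.3% in L-ala and 53.2 ± 2.5% in Vehicle libraries. The 5 D-ala libraries, 58.7 to 61.9%, lay above all L-ala libraries (46.1 to 55.5%) and all Vehicle libraries (50.6 to 56.0%). Lamb2 made up 22.9 ± 2.6% of the summed β genes in D-ala, 21.3 ± 3.3% in L-ala and 21.7 ± 1.7% in Vehicle libraries, and these groups overlapped.

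Col27a1, a fibrillar collagen best known from cartilage, had the largest fold change of all tested chains against Vehicle. Col27a1 (chr4:63214004-63334991, plus strand) read 16.3, 20.8, 15.03, 13.4 and 17.0 FPKM in the D-ala libraries, 10.8, 11.5, 11.1, 9.87 and 12.4 FPKM in the L-ala libraries, and 12.05, 6.39, 11.7, 9.17 and 8.59 FPKM in the Vehicle libraries. Every D-ala library lay above every other library, the L-ala libraries fell within or just above the Vehicle range, and the Vehicle libraries were the most spread relative to their mean. It rose in D-ala against Vehicle kidneys by 0.74 (SE 0.14, adjusted p = 0.00273) and kept 0.76 (adjusted p = 0.00327) with the length trend removed. D-ala against L-ala gave 0.52 (SE 0.14, adjusted p = 0.0231), which was lost with the length trend removed (0.42, adjusted p = 0.0759) and without L-ala replicate 4 (adjusted p = 0.0633) or D-ala replicate 2 (adjusted p = 0.0513). L-ala against Vehicle gave 0.23 (adjusted p = 0.268).

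The fibrillar collagens of the interstitium did not pass in any comparison. Col1a1 and Col1a2, which code for the chains of type I collagen, averaged 1.11 ± 0.49 and 3.96 ± 0.83 FPKM in D-ala, 0.9748 ± 0.304 and 4.47 ± 1.04 FPKM in L-ala, and 1.14 ± 0.26 and 4.97 ± 0.89 FPKM in Vehicle libraries. Col3a1, the type III chain, averaged 1.65 ± 0.50 FPKM in D-ala, 2.42 ± 0.67 in L-ala and 2.49 ± 0.79 in Vehicle libraries. Against Vehicle, D-ala gave -0.04 for Col1a1, -0.27 for Col1a2 and -0.39 for Col3a1 (adjusted p = 0.899, 0.210 and 0.138). Col5a2, whose product joins type I fibrils, gave 0.03 (adjusted p = 0.913). Beside them, the 10 fibroblast and pericyte markers summed to between 19.4 and 27.0 FPKM in D-ala, 16.7 and 34.5 FPKM in L-ala and 23.3 and 38.1 FPKM in Vehicle libraries, with Pdgfra (-0.63, adjusted p = 0.00748) and Dcn (-0.66, adjusted p = 0.0379) lower in D-ala than in Vehicle kidneys. Of the 10, 5 were tested, and 4.92% of all genes were called lower in D-ala against Vehicle. Pdgfrb (-0.18, adjusted p = 0.347) and Dpt (-0.20, adjusted p = 0.520) did not pass there. Cspg4, a pericyte proteoglycan, went the other way in D-ala, at 0.26 against Vehicle (adjusted p = 0.0549) and 0.32 against L-ala (adjusted p = 0.0239). None of the 10 was at 0 in every library, and their part was not tested.

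**Figure D3:**
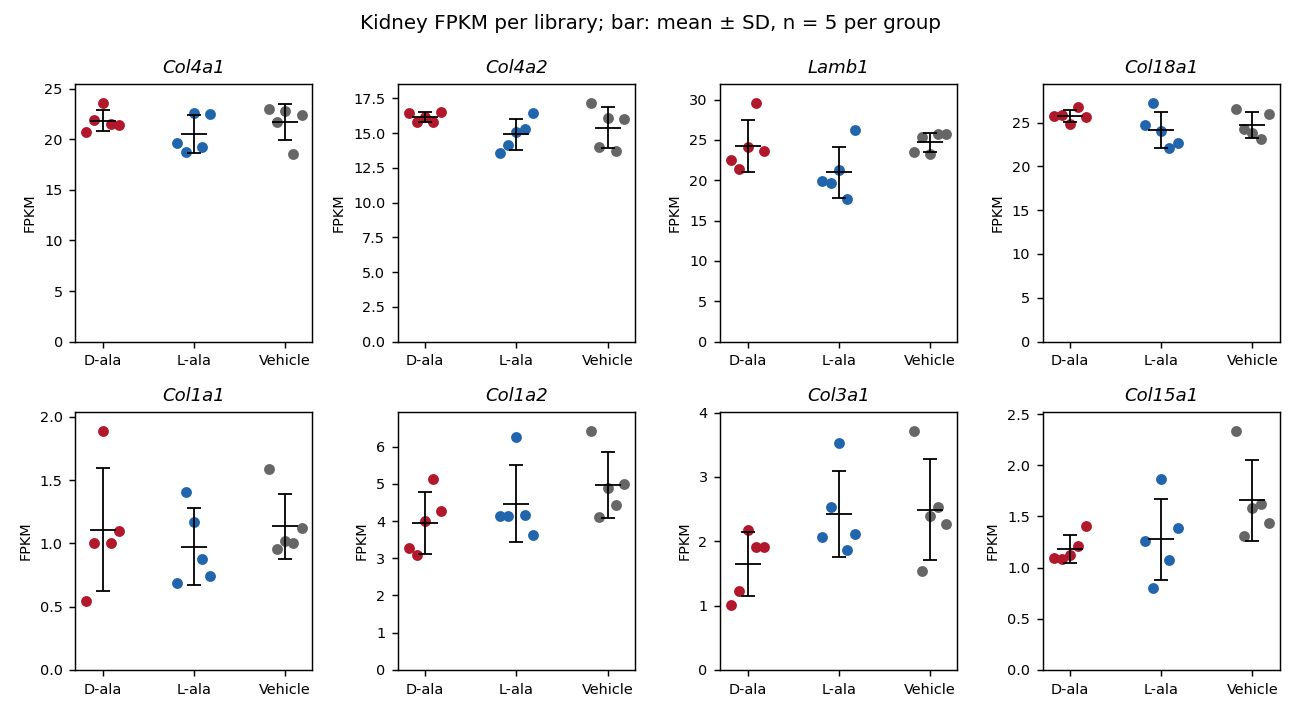
FPKM of 8 chain genes that passed in no comparison with all libraries, per library and treatment, with the mean and SD as bars and axes starting at 0. The 3 groups overlap in every panel, and Vehicle replicate 1 is the highest Vehicle point in every panel except that of Lamb1.

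Col18a1, the most abundant chain RNA, codes for a basement membrane collagen whose end fragment is endostatin. It averaged 25.8 ± 0.69 FPKM in D-ala, 24.2 ± 2.02 in L-ala and 24.7 ± 1.47 in Vehicle libraries, and D-ala against Vehicle gave 0.06 (95% interval -0.06 to 0.18). Its relative Col15a1, a collagen of capillary basement membranes, averaged 1.18 ± 0.13 FPKM in D-ala, 1.28 ± 0.40 in L-ala and 1.66 ± 0.40 in Vehicle libraries, with -0.27 for D-ala against Vehicle (adjusted p = 0.1496) and -0.23 for L-ala against Vehicle (adjusted p = 0.201). The 11 endothelial markers summed to between 123 and 170 FPKM in D-ala, 101 and 216 FPKM in L-ala and 149.9 and 239 FPKM in Vehicle libraries. Of them 3 were lower in D-ala than in Vehicle kidneys and 5 in L-ala than in Vehicle kidneys. Pecam1 was lower in both (-0.53, adjusted p = 0.0347, and -0.61, adjusted p = 0.0243). Of all genes, 4.92% and 4.53% were called lower in these comparisons. The part of these markers was not tested.

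Col6a1 and Col6a2, chains of the beaded filaments of collagen VI, gave -0.29 and -0.16 for D-ala against Vehicle (adjusted p = 0.104 and 0.424). Their partner, Col6a3, stayed between 0.491 and 1.13 FPKM and was not tested. Col14a1 and Col16a1, collagens that attach to fibrils, gave -0.16 and 0.21 (adjusted p = 0.538 and 0.196), and Col8a1, which forms short-chain networks in vessels, gave 0.03 (adjusted p = 0.962). Col14a1 averaged 1.51 ± 0.31 FPKM in D-ala, 2.36 ± 0.69 in L-ala and 1.83 ± 0.55 in Vehicle libraries and was lower in D-ala than in L-ala kidneys only without L-ala replicate 5 (-0.48, adjusted p = 0.0306, against -0.41, adjusted p = 0.0784, with all libraries). The 4 transmembrane collagens were not tested, and Col23a1 reached the most, 0.922 FPKM.

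Gene length moved with the treatments and is a property the chains share. The longest transcripts of the tested chains (GENCODE M21) ran from 4100 bases (Col6a1) to 11388 bases (Lama5) with a median of 5900.5, against a median of 2987.5 over the matched tested genes. Across genes, Spearman's rho of gene-centred expression with length ranged from -0.06 to 0.35 in the D-ala libraries, from -0.50 to 0.24 in the L-ala libraries and from -0.11 to 0.38 in the Vehicle libraries. L-ala replicate 5 gave the only positive rho of its group. Across genes, which are not replicates, the log2 fold change followed length with a rho of -0.07 for D-ala against Vehicle, -0.46 for L-ala against Vehicle and 0.40 between D-ala and L-ala over 11722 genes. Across the 26 chains it was 0.51, -0.19 and 0.57.

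At the chains the median size of the trend was -0.02 for D-ala against Vehicle, -0.10 for L-ala against Vehicle and 0.07 between D-ala and L-ala on the log2 scale. Without it the median log2 fold change of the chains was 0.04, -0.01 and 0.03. D-ala against Vehicle then called the same 4 chains higher, where 8% of all genes were called higher. L-ala against Vehicle called 0 chains lower, where 2.96% of all genes were, and D-ala against L-ala called 3 higher, Col4a3, Lama1 and Lama5, where 5.92% were. With the fit unchanged and the background kept to the 3368 tested genes at least as long as the shortest tested chain, a choice made after the data were seen, 5.79% of genes were called higher in D-ala against Vehicle, 8.7% lower in L-ala against Vehicle and 12% higher in D-ala against L-ala. The 7.69% of chains called lower in L-ala against Vehicle was therefore near the share among genes of like length. The rho across chains with the trend removed was 0.52, 0.04 and 0.49.

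**Figure D4:**
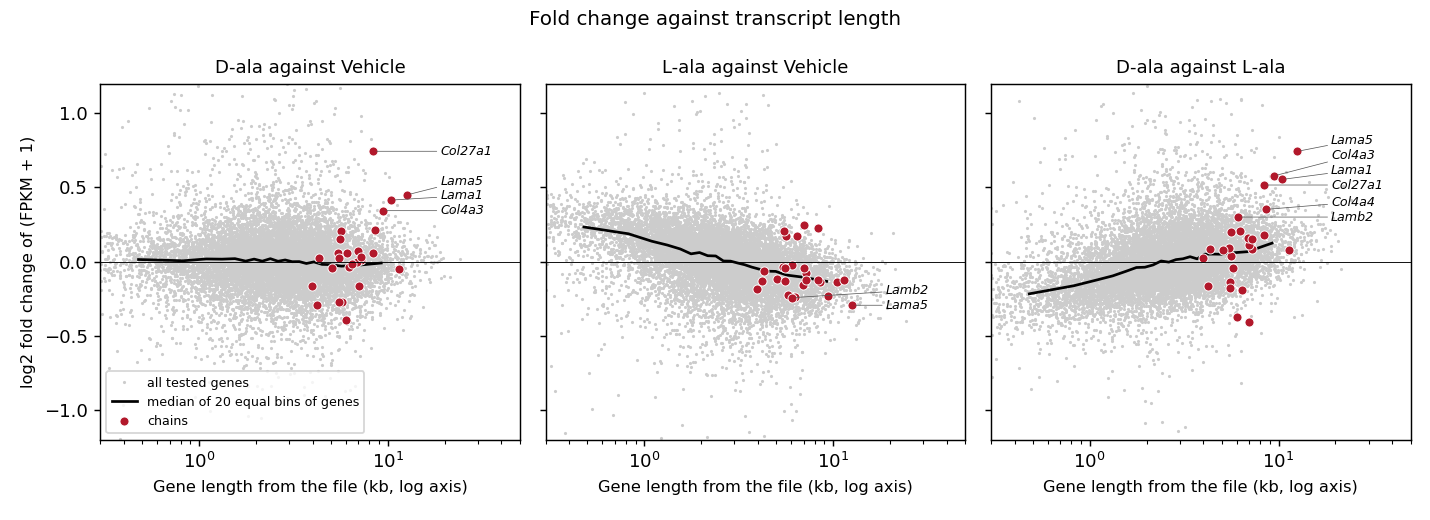
Log2 fold change of FPKM + 1 against gene length in kilobases on a log axis for all tested genes (grey), the 26 chains (red) and the median of 20 equal bins of genes (black line), with called chains named. The black line is nearly flat for D-ala against Vehicle, slopes down for L-ala against Vehicle (rho -0.46) and up between D-ala and L-ala (rho 0.40), and the chains called in D-ala against Vehicle, Col27a1, Lama5, Lama1 and Col4a3, are all longer than most chains.

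Genes that work with the chains were taken from 4 lists. Their counts stand beside the shares of all genes given above, 6.53% higher and 4.92% lower for D-ala against Vehicle, 6.48% higher and 4.53% lower for L-ala against Vehicle, and 7.01% higher and 6.66% lower for D-ala against L-ala. Of 22 tested partners in the basement membrane, 0 rose and 1 fell in D-ala against Vehicle, 1 rose and 0 fell in L-ala against Vehicle, and 1 was higher and 2 were lower in D-ala against L-ala. Itgb1, the β1 integrin that binds laminins and collagens, averaged 60.9 ± 1.58 FPKM in D-ala, 71.0 ± 3.56 in L-ala and 74.4 ± 3.90 in Vehicle libraries (-0.28 for D-ala against Vehicle, adjusted p = 0.00185). Agrn, which codes for agrin, a heparan sulfate proteoglycan of the kidney filter that binds laminin, averaged 16.9 ± 1.24 FPKM in D-ala and 12.9 ± 1.64 in L-ala libraries (0.37, adjusted p = 0.0107). Tinag, a tubular basement membrane antigen, averaged 78.4 ± 6.10 FPKM in D-ala, 95.5 ± 9.44 in L-ala and 80.01 ± 4.78 in Vehicle libraries and was higher in L-ala than in Vehicle kidneys by 0.25 (adjusted p = 0.0360), a call lost with the length trend removed (0.18, adjusted p = 0.0899).

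Of 25 tested genes of collagen folding, modification and processing, 1 rose and 0 fell in D-ala against Vehicle, 1 rose and 1 fell in L-ala against Vehicle, and 1 was higher and 2 were lower in D-ala against L-ala. Both L-ala calls against Vehicle were lost with the length trend removed, those of Ppib, a prolyl isomerase (0.24, adjusted p = 0.0378, and 0.07, adjusted p = 0.252, without the trend), and Lepre1 (-0.25, adjusted p = 0.0395, and -0.24, adjusted p = 0.0597, without it). Serpinh1, the collagen chaperone HSP47, was lower in D-ala than in L-ala kidneys by a log2 fold change of -0.36 (36.2 ± 4.47 against 46.8 ± 5.18 FPKM, adjusted p = 0.0164). Loxl1, a lysyl oxidase that cross-links matrix, was also lower (-0.40, adjusted p = 0.0331), and Lepre1, a prolyl 3-hydroxylase, was higher (0.28, adjusted p = 0.0243). Pcolce, an enhancer of procollagen processing, rose in D-ala against Vehicle kidneys by 0.22 (adjusted p = 0.0336).

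Of 12 tested matrix proteases and inhibitors, 2 rose and 1 fell in D-ala against Vehicle and 1 rose and 1 fell in L-ala against Vehicle, and 1 was higher and 1 lower in D-ala against L-ala. The last were Plat, the tissue plasminogen activator (0.48, adjusted p = 0.0153), and Ctsk, the collagen-cleaving cathepsin K (-0.46, adjusted p = 0.0329, and -0.38, adjusted p = 0.0503, with the length trend removed). Timp3, an inhibitor of metalloproteinases that binds the matrix, rose in both, averaging 615 ± 88.9 FPKM in D-ala, 574 ± 35.8 in L-ala and 440.0 ± 18.8 in Vehicle libraries (0.47, adjusted p = 0.00175, and 0.38, adjusted p = 0.0131). Of 11 tested genes of TGF-β signalling, a pathway that raises collagen transcription in fibrosis, 0 rose and 3 fell in each comparison with Vehicle, and 0 passed in D-ala against L-ala. The median log2 fold change of the 11 was -0.18 for D-ala and -0.11 for L-ala against Vehicle. With the length trend removed, 3 and 2 were called in the comparisons of D-ala and L-ala with Vehicle. The ligand gene Tgfb1 averaged 2.82 ± 0.60 FPKM in D-ala, 2.68 ± 0.67 in L-ala and 4.38 ± 0.77 in Vehicle libraries (-0.50, adjusted p = 0.0288, and -0.56, adjusted p = 0.0221). Macrophages and other immune cells also express Tgfb1, and 3 of 7 tested macrophage markers were lower in D-ala and 1 in L-ala than in Vehicle kidneys. Of all genes, 4.92% and 4.53% were called lower there. The part of these markers was not tested.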

How the data were processed

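Messenger RNA of 15 kidney samples was sequenced from TruSeq stranded libraries, per the labels' protocols. The submitters' processing notes name the build mm10 with SAMtools 0.1.19, Bowtie2 2.2.3 and TopHat2 2.0.13 but no role for each. Which program gave the gene values, with which annotation and strand setting, is not given in the sources used here. Counting may therefore have split reads between overlapping genes, antisense pairs or paralogs. The values tested were FPKM as the authors deposited them, per the file headers. The deposited column headed count was treated as a score, because its whole numbers are rescaled. It gave the recovered depth and, per FPKM, each gene's length, and no count model was fitted.

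Genes with at least 1 FPKM in 5 libraries were tested as log2(FPKM + 1), a scale that understates changes of low genes, with limma 3.58.1 in R 4.3.3 (1 mean per group, variance trend, robust moderation, Benjamini-Hochberg adjustment within a comparison). Every adjusted p comes from limma, and intervals are at 95%. FPKM carry no counting interval, so precision is the spread between libraries. The fit was also run on simulated data with independent noise, with no length slope or with the same slope in all D-ala libraries. The length slopes of the real libraries differ within a group, so that run does not show how the fit handles them. Length and GC trends were loess fits (span 0.3) to gene-centred values in each library. Symbols matched GENCODE M21 directly for 20911 genes and through older symbols for 1915, and 458 did not match. Same-group libraries differed by 4.94 to 23.7 times the counting noise over 30 pairs, so none was a repeat deposit.

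The members and lists were chosen with earlier results of these data known. Named were all called members, a set list of chains, up to 2 chains per class, and up to 4 called genes per partner list and comparison. Alternatives covered scaling, pseudocount, filter, length, GC, groups in the fit, moderation and each library left out. Single values of 1 tested chain, which stayed in the fits and counts, and of 2 podocyte markers, which were left out of the marker sums, are not reported here.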

Additional observations from a re-analysis of the deposited data

Results flagged for a closer look

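In 72 pairs of a gene and a treatment, 8 held a library far from the other 4 of its group, where chance gives about 5%. In L-ala replicate 5, Col4a5 at 6.11 FPKM and Lama1 at 2.775 FPKM lay above the other L-ala libraries, which spanned 4.10 to 4.67 and 1.36 to 1.67 FPKM. In L-ala replicate 4, Lama5 at 4.93 FPKM lay below the others, which spanned 5.78 to 5.96 FPKM. In L-ala replicate 3, Col1a2 at 6.275 FPKM lay above the others at 3.62 to 4.17 FPKM. In Vehicle replicate 1, Col1a1 at 1.58 FPKM lay above the others at 0.956 to 1.12 FPKM, and Lama1 at 1.502 FPKM lay below the others at 2.16 to 2.33 FPKM. In Vehicle replicate 4, Lama5 at 8.03 FPKM lay above the others at 6.90 to 7.16 FPKM. In D-ala replicate 2, Col4a3bp at 12.03 FPKM lay below the others at 15.2 to 16.03 FPKM. L-ala replicate 5 was also the library whose expression followed gene length unlike the rest of its group, and Vehicle replicate 1 had the lowest depth. Their part in these values was not tested.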

How the results depend on the processing

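No paired analysis was possible because the replicate numbers follow sample order only and pair no libraries across treatments. Over 20 named genes, 1499 of 1551 values kept their side of the threshold, 46 lost a call and 6 gained one. No called value changed sign, but 71 uncalled values did. Alternatives marked as added, the 3 libraries of lowest depth left out and the length and GC trends removed together, were chosen after seeing the data.

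For L-ala against Vehicle the genes called numbered 1297, and 575 with quantile normalization, 750 with the length trend removed, 603 with only the compared groups in the fit and 809 with length and GC trends removed. Chains called lower there numbered 2, and 1 with quantile normalization, with only the compared groups or without the 3 libraries of lowest depth, and 0 with the length trend or both trends removed. With no filter they numbered 3, with a chain untested in the main fit added. The chains' median of -0.1255 became -0.0642 with quantile normalization, -0.0442 with no filter, -0.0078 with the length trend removed and -0.0046 with both removed. For D-ala against L-ala the genes called numbered 1611, and 975 with only the compared groups. Chains called higher there numbered 6, and 3 with the length trend or both trends removed. With no filter 6 were also called, Col4a4 being lost and a chain untested in the main fit gained. The chains' median of 0.0902 became 0.0242 with no filter, 0.0296 with the length trend removed, 0.0071 with both removed and 0.1672 without the 3 libraries of lowest depth. No filter adds low chains, and the length setting removes a slope that the libraries carry; for the others the cause was not tested.

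Leaving out 1 library gave 814 to 1591 genes called for D-ala against Vehicle, with 3 to 4 chains higher, 0 lower and medians of -0.0036 to 0.0406. The lowest count came without Vehicle replicate 4. It gave 321 to 2577 genes for L-ala against Vehicle, with 1 to 5 chains lower, 0 higher and medians of -0.1255 to -0.0741, the fewest without Vehicle replicate 4 and the most without L-ala replicate 5. It gave 770 to 2763 genes for D-ala against L-ala, with 4 to 9 chains higher, 0 to 1 lower and medians of 0.0787 to 0.1402, the fewest without L-ala replicate 4 and the most without L-ala replicate 5. Beside the losses given in the text above, the rise of Lama1 in D-ala against Vehicle was lost with median-of-ratios scaling (adjusted p = 0.05019), a pseudocount of 0.1 (0.0567), no filter (0.0733) and no variance trend (0.05016). The fall of Lamb2 in L-ala against Vehicle was lost with quantile normalization (0.0957) and only the compared groups (0.0793). Without the 3 libraries of lowest depth both were lost (0.0509 for Lama1 and 0.184 for Lamb2). With both trends removed, the calls lost were those lost with the length trend alone. Low FPKM rest on few reads, so small changes of the 28 untested chains could be missed. The fit with no filter nonetheless called an untested chain in each comparison that involved L-ala.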
